A study of Mus musculus with 216 samples.

Results

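The daily rhythm of gene expression was followed in skeletal muscle of old male mice (27 months, strain C57B6/J-NIA). The 12 libraries are those of old muscle at circadian times 18 to 62 h in steps of 4 h, out of 216 libraries from 6 tissues at 3 ages. Muscle of young (6-month) and aged (18-month) mice of the same strain and sex, with 12 libraries each at the same times, stands beside it. The labels name no transgene, mutation or treatment in any group. Each library pools RNA from 2 samples, so each time point of old muscle has 1 library and no replicate. The libraries cover 2 daily cycles, and pairs of libraries 24 h apart are the closest to repeats. Whether such samples are separate animals is not stated, so every p below measures the spread of single libraries around a fitted curve. The labels do not name the muscle that was taken, the light conditions or the feeding schedule. Times of day below are circadian times modulo 24 h.

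The mammalian clock runs in nearly every cell as a loop of transcription. BMAL1 (encoded by Arntl) pairs with CLOCK or NPAS2, binds E-box sequences and drives the Per and Cry genes, whose proteins then repress BMAL1. In a coupled loop, the REV-ERB receptors (Nr1d1, Nr1d2) repress Arntl while ROR receptors activate it, and PAR-bZIP factors such as DBP carry the rhythm on to output genes. In skeletal muscle the clock is known for timing genes of fuel use and the gene of the muscle determination factor MyoD.

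Each gene was fitted with a 24 h cosine, giving a peak time and an amplitude, the distance from the curve's mean to its peak in log2 CPM, counts per 1000000 counts of the library (M below stands for 1000000). A gene was called where edgeR's quasi-likelihood test gave an adjusted p (Benjamini-Hochberg over all genes tested) under 0.05. Every adjusted p below is from that test. The old library at 62 h stood apart from the other 11, so each result is given with and without it. Peak times and amplitudes, with their standard errors, come from the 11 other libraries unless stated. A gene is called rhythmic here where it passed both with and without the library at 62 h.

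Old libraries held 3.6 to 18.1 M counts (median 8.62 M), in the median below the young (15.2 to 27.6 M, median 18.9 M) and the aged ones (11 to 20.7 M, median 18.2 M). The ranges overlap. The shallowest were those at 38 h (4.1 M) and 62 h (3.6 M), which share the time of day 14 h. Muscle identity was plain in every old library: Acta1, skeletal actin, ranged from 9800 to 18500 CPM and Ckm, muscle creatine kinase, from 9450 to 21000 CPM. Summed markers of lung (at most 2.19 CPM) and heart (at most 4.17 CPM) were near 0 in all 12 old libraries, with the atrial gene Myl7 at 0. The lung sum was higher in the groups set beside it, at 77.4 to 321 CPM in young and 41.8 to 1372 CPM in aged muscle. The aged library at 26 h held the 1372 CPM, and 3 of the 5 lung markers were called in aged muscle. The part of lung transcripts in the comparisons between ages was not tested. Summed markers of slow fibres ranged more widely, from 499 CPM at 18 h to 3672 CPM at 62 h. In bulk tissue, fewer cells of a type and less RNA per cell cannot be told apart.

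In old muscle, 672 of 14542 genes tested (4.62%) were called with all 12 libraries, and 288 of 14610 (1.97%) without the library at 62 h. Called in both were 230 genes (1.58% of those tested), which are 34.2% of the longer list and 79.9% of the shorter. A further 442 genes were called only with 62 h, and 58 only without it. Without both libraries of time of day 14 h (38 and 62 h) 152 genes were called (1.03%), and 118 of the 230 (0.811% of genes tested) were among them. Fitted to the old libraries by themselves, so that the spread is not shared with the other ages, the test called 29 genes with 62 h and 97 without. Of the 230, 26 and 68 were among these. The other adjusted p values use a spread shared by the 3 ages. Old libraries 24 h apart differed by a median of 0.22 to 0.60 log2 units per gene. For young libraries this was 0.12 to 0.22 and for aged ones 0.166 to 0.455. The part of the old libraries' spread, or of fewer libraries, in the lower counts was not tested. The median amplitude of the 230 genes was 0.52, against 0.16 over all genes tested, and the median standard error of their peak times was 0.81 h. For comparison, 200 genes (1.38%) were called in young and 438 (3.01%) in aged muscle, and 69 and 77 of the 230 were among them. With the spread estimated without the old library at 62 h, these counts were 268 (1.83%) and 1568 (10.7%).

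Rhythmic genes of old muscle were spread unevenly over the day. By windows of 4 h, 45 of the 230 peaked at 0 to 4 h, 24 at 4 to 8 h, 37 at 8 to 12 h, 66 at 12 to 16 h, 32 at 16 to 20 h and 26 at 20 to 24 h. The fitted peaks of all genes tested fell most often in the same windows, 3228 at 0 to 4 h and 3474 at 12 to 16 h. The windows also differed in how many genes stayed called when a second library was left out besides 62 h. Without those at 38 and 62 h, 31 of 37 genes at 8 to 12 h (83.8%), 23 of 32 at 16 to 20 h (71.9%) and 18 of 26 at 20 to 24 h (69.2%) were still called. At 12 to 16 h, 14 of 66 were (21.2%), at 0 to 4 h 20 of 45 (44.4%) and at 4 to 8 h 12 of 24 (50%). Other libraries mattered as well: without 54 and 62 h 2 of 24 genes at 4 to 8 h stayed called, without 26 and 62 h 18 of 45 at 0 to 4 h and 26 of 66 at 12 to 16 h, and without 50 and 62 h 17 of 45 and 29 of 66. The share also called in young muscle varied likewise: 19 of the 37 genes at 8 to 12 h and 19 of the 32 at 16 to 20 h passed there, against 10 of 66 at 12 to 16 h and 5 of 45 at 0 to 4 h.

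**Figure D1:**
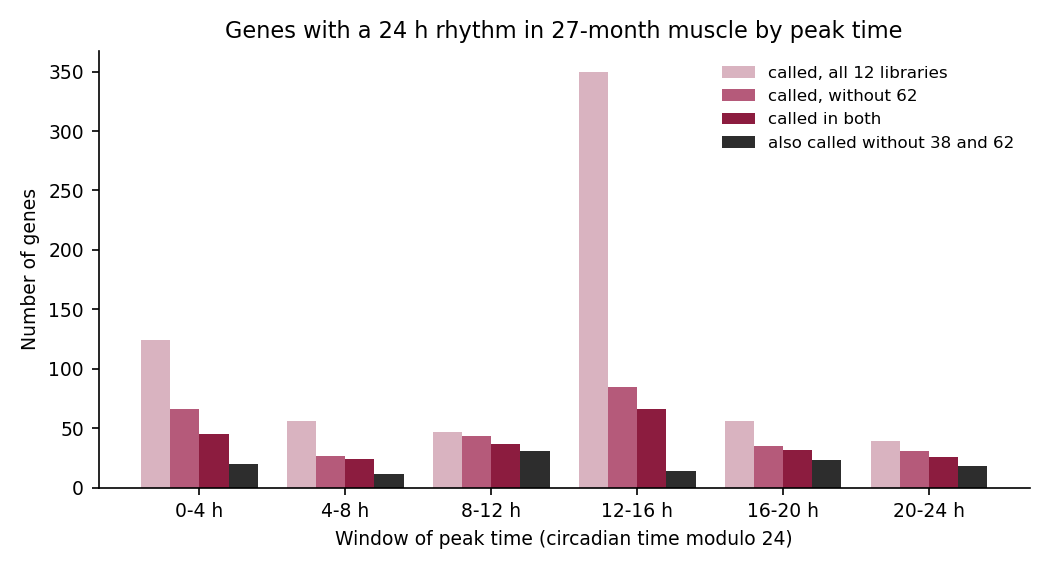
Number of genes called rhythmic in 27-month muscle (vertical axis) by 4 h window of peak time (horizontal axis); bars give genes called with all 12 libraries, without the library at 62 h, in both, and also without 38 and 62 h. At 12 to 16 h the bars run from 350 genes with all 12 libraries to 14 in the last set, while at 8 to 12 h they run from 47 to 31. Windows of the first bars use peak times from all 12 libraries, and those of the other bars peak times without 62 h.

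The core clock cycled in old muscle. Of the 19 clock genes listed, all of them tested, 15 were rhythmic, against 1.58% of all genes tested: 2 of 3 activators, 7 of 8 repressors of the period and cryptochrome group, 2 of 4 REV-ERB and ROR receptors and 4 of 4 PAR-bZIP factors with their antagonist. Only Cry2 of the 15 was lost without 38 and 62 h (adjusted p = 0.056). These members were chosen because they are known to cycle, so their count is a check of the labelled times and says nothing on aging by itself.

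Among the activators, Arntl, the gene of BMAL1, ranged from 13.1 to 71.6 CPM over the 12 libraries (median 38.2 CPM). It was highest at 22 h and 46 h, the same time of day in the 2 cycles, and lowest at 34, 58 and 62 h. The fitted curve peaked at 22.1 ± 0.38 h with an amplitude of 1.07 ± 0.10 (SE), a 4.38-fold change from trough to peak (adjusted p = 1.3e-05). Npas2, which can replace CLOCK as partner of BMAL1, peaked at 0.19 ± 0.48 h (adjusted p = 0.001). Its level was low throughout, at most 3.39 CPM, and it had no count at 38 and 62 h, so its amplitude of 1.89 depends on the value added before taking logs. Clock itself passed with 62 h (adjusted p = 0.047) and not without it (adjusted p = 0.21). At 62 h Clock stood at 12.8 CPM, its lowest value, against 23.4 to 62.2 CPM elsewhere.

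Of the receptors that link the loops, Nr1d1, the gene of REV-ERBα, ranged from 33.1 to 242 CPM (median 139 CPM) and peaked at 4.55 ± 0.69 h, with an amplitude of 0.97 ± 0.18 (adjusted p = 0.0011). It was low at 38, 42 and 62 h, times of day 14 and 18 h, and high at 30, 46 and 54 h. Nr1d2 peaked later, at 9.13 ± 1.2 h, with a smaller amplitude of 0.43 (adjusted p = 0.0095). Rora, an opposing activator, did not pass (adjusted p = 0.13).

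All PAR-bZIP factors were rhythmic, with and without the libraries at 14 h. Dbp, which activates output genes, ranged from 22.1 to 218 CPM (median 69.4 CPM), with 4 libraries at 178 CPM or more (30, 34, 54 and 58 h) at the times of day 6 and 10 h of both cycles. Its curve peaked at 9.06 ± 0.24 h, rose 9.21-fold from trough to peak and had the smallest adjusted p of the clock genes (1.6e-10). Hlf peaked at 11 ± 0.73 h (amplitude 0.67) and Tef at 11.7 ± 0.5 h (amplitude 0.30). Nfil3, which competes with these factors for their sites, ran opposite: it peaked at 19.1 ± 0.47 h, 12.2 to 91.9 CPM, with its lowest values at 30 and 54 h, where Dbp was high (adjusted p = 1.4e-07).

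Among the repressors, Ciart, whose protein inhibits CLOCK and BMAL1, had the largest amplitude at 1.82 ± 0.27. It ranged from 0.862 CPM at 18 h to 17 CPM at 34 h (median 3.54 CPM) and peaked at 8.49 ± 0.63 h (adjusted p = 1.8e-06). Bhlhe40 and Bhlhe41, which bind E-boxes and repress there, peaked at 8.77 ± 0.58 h and 9.79 ± 1.1 h. Per3 followed at 9.98 ± 0.67 h, Cry2 at 10.5 ± 0.64 h, Per2 at 11.2 ± 0.6 h and Per1 at 11.5 ± 0.78 h. The order of neighbours in this series is within their standard errors. Per1 was the period gene with the largest amplitude, 1.14 ± 0.24, from 10.8 CPM at 26 h to 79.9 CPM at 58 h. Cry1, which peaked at 19.1 ± 1.4 h with an amplitude of 0.30, did not pass (adjusted p = 0.085).

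**Figure D2:**
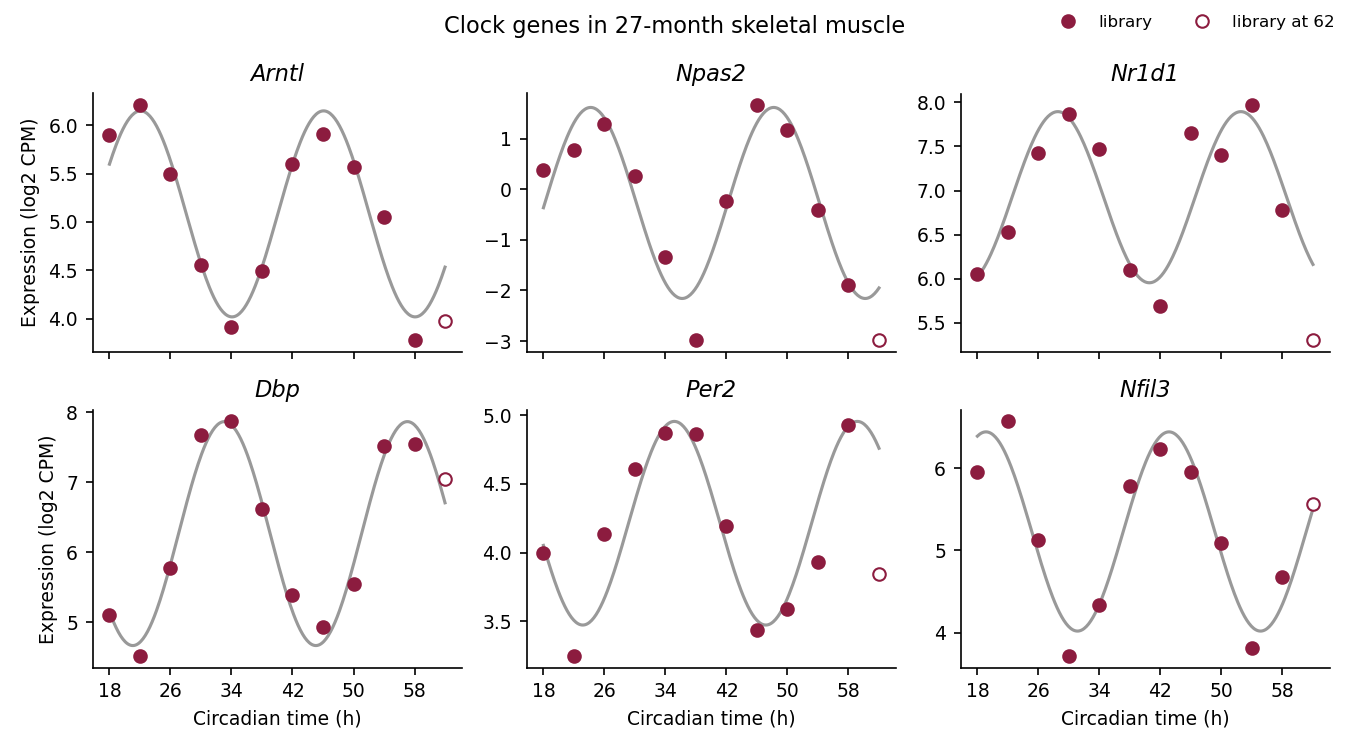
Expression in log2 CPM (vertical axis) of 6 clock genes against circadian time in hours (horizontal axis) in 27-month muscle; each point is a library, the open point is the library at 62 h and the line is the 24 h cosine fitted to the other 11. Dbp and Nfil3 lie close to the curve at 62 h, while Npas2, Nr1d1 and Per2 lie below it.

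The clock genes also served to read the time of each library. Each library's 19 clock genes were matched to curves fitted to the other 11 old libraries, in steps of 0.25 h. The library at 62 h read 14.25 h, within 0.25 h of its labelled time of day, and the other 11 differed from their labels by -1.75 to 3 h. Against the young curves it read 15.5 h. The levels of its clock genes were nonetheless mostly below the curve of the other 11 libraries: 15 of 19 were lower, with a median gap of -0.56 on the log2 scale, where the median over all genes tested was -0.0032. The part of depth and of the length trend described below in that gap was not tested.

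Promoter sequences of the rhythmic genes were compared by window of peak time. RefSeq promoters (GRCm38.p6, 250 bases before to 50 after each start) were matched by symbol, 29 of the 37 genes at 8 to 12 h having an entry. The E-box CACGTG, which reads the same on both strands, was present in 10 of their 37 promoters (27.0%), against 7.15% of all 32851 promoters in the table and 9.76% of the 13551 promoters of genes tested. It was in 6 of 34 promoters at 4 to 8 h (17.6%), 4 of 28 at 20 to 24 h (14.3%), 4 of 38 at 16 to 20 h (10.5%), 3 of 48 at 0 to 4 h (6.25%) and 3 of 72 at 12 to 16 h (4.17%). The D-box letters TTATGTAA or TTACGTAA, sought on both strands, were in 1.06% of all promoters. They were in 2 of the 37 at 8 to 12 h (5.41%) and in 2 of 38 at 16 to 20 h (5.26%). At 12 to 16 h 1 of 72 held them (1.39%), and no promoter of the other windows did. The ROR element letters TAGGTCA or TGGGTCA were in 6.45% of all promoters. They were in 4 of 38 at 16 to 20 h (10.5%) and in 4 of 48 at 0 to 4 h (8.33%). At 4 to 8 h 2 of 34 held them (5.88%) and at 8 to 12 h 1 of 37 (2.7%). At 12 to 16 h 1 of 72 did (1.39%) and at 20 to 24 h 1 of 28 (3.57%), that of Arntl. Clock genes gave part of the 10 E-box promoters at 8 to 12 h: Ciart, Per1, Tef and Bhlhe41. Dbp, which peaked in the same window, had no CACGTG in its promoter, nor had Nr1d1. Per2 had no entry. A match describes the letters in the stretch searched and is not evidence of binding.

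The upstream promoter of Ciart is shown because it holds the most E-boxes of that window. It lies on the minus strand at chr3:95882229-95882478 and ends at the base before the start site, with each CACGTG in capitals. The first of its 3 E-boxes begins 116 bases before the start site, the others 58 and 44 bases before it.
Ciart: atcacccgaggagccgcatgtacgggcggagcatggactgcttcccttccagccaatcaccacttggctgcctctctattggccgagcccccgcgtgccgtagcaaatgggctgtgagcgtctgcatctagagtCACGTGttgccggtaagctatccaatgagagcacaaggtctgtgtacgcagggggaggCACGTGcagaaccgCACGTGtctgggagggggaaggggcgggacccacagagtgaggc

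E-box stretches of 20 bases follow for 4 other genes of the same window, each with 1 E-box (in capitals) in the promoter shown. They are the clock genes Per1 (chr11:69098776-69098795, plus strand, 166 bases before the start), Tef (chr15:81802539-81802558, plus strand, 127 before) and Bhlhe41 (chr6:145865561-145865580, minus strand, 153 before), and the output gene Coq10b (chr1:55052685-55052704, plus strand, 78 before). For contrast, a 30-base stretch of Arntl, which peaks in the opposite part of the day, holds the ROR element TAGGTCA (chr7:113207530-113207559, plus strand, 30 bases after a start site).
Per1: ccaagtcCACGTGcagggat
Tef: gtggctcCACGTGctgcagc
Bhlhe41: cgttccgCACGTGagctggg
Coq10b: cactggaCACGTGcgtcagc
Arntl: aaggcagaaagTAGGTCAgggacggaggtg

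In each window, amplitudes were ranked outside the clock lists among rhythmic genes with a mean of at least 5 CPM in old muscle. At 8 to 12 h the largest were those of Coq10b, Usp2, Slc30a1 and Adamts5. Coq10b, a coenzyme Q binding protein of mitochondria, ranged from 6.7 CPM at 46 h to 29.3 CPM at 58 h (median 14.6 CPM). It peaked at 9.03 ± 0.56 h, close to Dbp, with an amplitude of 0.91 ± 0.12 (adjusted p = 6.1e-07). Usp2, a deubiquitinating enzyme, ranged from 117 to 252 CPM and was above 200 CPM in the 5 libraries at 30, 34, 38, 54 and 58 h. It peaked at 10.7 ± 0.45 h (adjusted p = 6.1e-07). Both were called in young and aged muscle as well, at peaks of 9.92 and 8.56 h for Coq10b and of 12.3 and 11.5 h for Usp2. The zinc exporter Slc30a1 peaked at 8.49 ± 0.88 h and the matrix protease Adamts5 at 8.41 ± 1.2 h.

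At 4 to 8 h, Pfkfb3, which makes the activator of phosphofructokinase, had the largest amplitude. It ranged from 69.3 CPM at 62 h to 982 CPM at 30 h (median 303 CPM), was also high at 34, 54 and 58 h and peaked at 6.65 ± 1.1 h (amplitude 1.06 ± 0.29, adjusted p = 0.028). It was called in young and aged muscle with peaks at 6 and 5.91 h. Its call was lost without 38 and 62 h (adjusted p = 0.058). Klf5, a transcription factor, Ccnd2, cyclin D2, and Rasgrf2, a Ras exchange factor, had amplitudes of 0.51 to 0.55 at levels of at most 12.1 CPM. None of these 3 passed in young or aged muscle, where their adjusted p lay between 0.17 and 0.92. The tests of the difference in rhythm did not pass either, at adjusted p of 0.16 or more.

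At 16 to 20 h, Ppp1r3c, which targets protein phosphatase to glycogen, ranged from 196 CPM at 30 h to 971 CPM at 42 h (median 654 CPM). It was lowest at 30, 34, 54 and 58 h, where Dbp was highest, and peaked at 19.3 ± 0.77 h with an amplitude of 0.93 ± 0.17 (adjusted p = 0.0016). Myod1, the muscle determination factor and a known target of the clock, ranged from 20.2 to 66.7 CPM (median 44.7 CPM) and peaked at 18.6 ± 0.48 h (amplitude 0.73 ± 0.08, adjusted p = 3.1e-05). Its values were above 50 CPM at 18, 22, 38, 42 and 46 h and under 35 CPM at 30, 34, 54 and 58 h. Banp, a nuclear matrix binding protein, peaked at 19.8 ± 0.72 h and the potassium channel subunit Kcnf1 at 17.2 ± 0.73 h. Timp4, a metalloproteinase inhibitor, passed narrowly (adjusted p = 0.048) and was lost without 38 and 62 h (adjusted p = 0.11).

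At 20 to 24 h, Wsb1, a component of a ubiquitin ligase, ranged from 7.3 to 29.7 CPM (median 16 CPM), was highest at 22 and 26 h and peaked at 23.2 ± 0.61 h (amplitude 0.76 ± 0.12, adjusted p = 3.6e-05). Ypel2 peaked at 21.6 ± 0.75 h, 6.68 to 29.9 CPM, with the same adjusted p. Both were called in young and aged muscle too, with amplitudes of 0.68 to 0.94. Zdhhc23, a palmitoyltransferase, had the largest amplitude of the window (1.17 ± 0.23, adjusted p = 0.015) and passed at neither of the other ages. The heat shock gene Hspa1a ranged from 3.52 to 28.3 CPM, was highest at 26 h and peaked at 23.4 ± 0.82 h (adjusted p = 0.0038). Hspa1a is nearly identical to Hspa1b, so their counts may be split by the counting.

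At 0 to 4 h, the genes with the largest amplitudes included Myom3, a protein of the sarcomere's M-band that is known from slower fibre types. It ranged from 46.1 CPM at 38 h to 433 CPM at 50 h (median 92.8 CPM), with 232 CPM at 26 h, and peaked at 1.77 ± 0.58 h with an amplitude of 1.22 ± 0.20 (adjusted p = 0.0098). Togaram2 and Arpp21 had their highest values at 50 h as well. Inpp4b, a phosphoinositide phosphatase, was highest at 26 h, at 39.4 CPM. None of these 4 passed in young or aged muscle, and the differences in rhythm did not pass (adjusted p of 0.059 or more with 62 h and 0.11 or more without). Summed slow fibre markers were also high at 26 h (2527 CPM) and 50 h (2940 CPM). With the log2 of that sum as a covariate in each age, 31 of the 45 genes at 0 to 4 h were called with 62 h and 3 without it, where Myom3 was not (adjusted p = 0.39).

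Most genes of the window of 12 to 16 h were called at neither of the other ages. A smaller number cycled at all 3 ages: Slc25a30, a mitochondrial carrier, ranged from 6.8 CPM at 50 h to 34.6 CPM at 42 h (median 15.6 CPM) and peaked at 15.5 ± 0.45 h (amplitude 1.22 ± 0.15, adjusted p = 0.00084). In young and aged muscle it peaked at 15.8 and 14.9 h with amplitudes of 1.35 and 1.20. Arrdc2, an arrestin-domain protein, had the largest amplitude of the window at 1.65 ± 0.34, peaked at 15 ± 0.72 h and was called at all 3 ages. It was 106 CPM at 38 h and 5.23 CPM at 26 h, and without 38 and 62 h it did not pass (adjusted p = 0.054). Mylk4, a myosin light chain kinase, ranged from 702 to 3352 CPM, was lowest at 26 and 50 h and peaked at 13.3 ± 0.65 h (adjusted p = 0.00024). It was called in aged muscle and not in young (adjusted p = 0.13), where its amplitude was 0.50 against 1.01 in old muscle, and the difference from young did not pass (adjusted p = 0.95 without 62 h). Odf3l2, with an amplitude of 1.32 ± 0.24, passed without 38 and 62 h too (adjusted p = 0.018). It was called in neither young nor aged muscle, with amplitudes of 0.64 and 0.69 there. Its differences in rhythm did not pass (adjusted p of 0.21 or more).

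Genes of the window that were not called at another age had smaller amplitudes there in the median. Over the 56 genes at 12 to 16 h not called in young muscle, the median amplitude was 0.41 in old and 0.07 in young muscle. Over the 56 not called in aged muscle it was 0.41 in old and 0.15 in aged muscle. Both sets were chosen by calls made on these amplitudes, so the differences are a description. Genes of contraction were among them. Of 25 genes of the sarcomere and of calcium handling, 11 were called with 62 h, 11 without it and 9 in both, against 1.58% of all genes tested. None was called in young or aged muscle, and none without 38 and 62 h. Their median amplitude was 0.37, against 0.16 over all genes tested, and 16 of the 25 peaked at 12 to 16 h. Rhythmic members were Acta1, the troponins Tnnc2 and Tnni2, the light chains Myl1 and Mylpf, Ckm, the calcium buffers Pvalb and Casq1, and Myoz1, a Z-disc protein.

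Tnnc2, the calcium sensor of fast troponin, ranged from 2990 to 9520 CPM (median 3760 CPM) over the 12 old libraries. The highest values were those of the libraries at 62 h (9518 CPM) and 38 h (5788 CPM), both at 14 h, and the lowest was at 54 h. Its curve peaked at 14.1 ± 1 h with an amplitude of 0.45 ± 0.13 (adjusted p = 0.024), and without 38 and 62 h it did not pass (adjusted p = 0.26). In young muscle Tnnc2 stayed between 2460 and 3340 CPM. Ckm behaved likewise, with 19591 CPM at 38 h and 20965 CPM at 62 h against 9446 to 15076 CPM in the other 10 old libraries. Actn2, the alpha-actinin of slow and fast fibres, ran opposite: it was called without 62 h, with a peak at 1.63 ± 0.65 h (adjusted p = 0.045), and its highest value was 2099 CPM at 50 h.

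Of 24 genes of glucose uptake and glycolysis, 12 were called with 62 h, 8 without and 7 in both, against 4.62%, 1.97% and 1.58% of all genes tested. Of the 24, 15 peaked at 12 to 16 h, where 3474 of the 14542 genes tested did. Aldoa, Eno3, Gapdh and Pkm, enzymes of glycolysis abundant in fast fibres, were rhythmic with peaks at 13.6 to 14.1 h. Gapdh ranged from 314 CPM at 54 h to 1110 CPM at 62 h and was also high at 38 h (1053 CPM). Gapdh has many processed copies in the genome, so its counts are uncertain. Without 38 and 62 h 2 members were called, Tbc1d1, a regulator of glucose transporter traffic, and Pdp1, the phosphatase that activates pyruvate dehydrogenase. Tbc1d1 peaked at 17.3 ± 0.69 h and Pdp1 at 9.62 ± 0.64 h, and both were called in young and aged muscle. The third rhythmic member with a peak outside 12 to 16 h was Pfkfb3, at 6.65 h.

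Other measures ran with these genes across the old libraries, as the plot of contractile genes, slow fibre markers and depth shows. The summed sarcomere and calcium list was highest at 38 h (207631 CPM), the library with 4.1 M counts, and stood between 135657 and 175991 CPM in the other old libraries. Over the young and aged libraries the same sum stayed between 115631 and 143445 CPM. Slow fibre markers were low at 18, 34 and 38 h (499, 708 and 888 CPM), when the summed fast fibre markers were 67231 to 84997 CPM. At 30 h, however, fast markers were 68279 CPM while slow markers were 2153 CPM. The slow markers were at their highest at 62 h. Myh7, the slow myosin heavy chain, was 57.7 CPM at 18 h, 183 CPM at 34 h and 201 CPM at 38 h, against 877 CPM at 50 h. No slow fibre marker passed the rhythm test itself, with or without 62 h. Their median fitted amplitude was nonetheless large, 1.03 without 62 h and 0.58 with it, against 0.16 and 0.20 over all genes tested. In young and aged muscle it was 0.20 and 0.31. Without 62 h, 18 of the 66 genes at 12 to 16 h were called with the log2 library total as a covariate, and 4 of 66 with the slow fibre sum. With all 12 libraries these were 12 and 54 of 66. Without 62 h, at 8 to 12 h the same covariates left 34 and 20 of 37, and at 16 to 20 h 23 and 23 of 32. Dbp, Arntl, Usp2, Myod1 and Slc25a30 were called under both covariates, while Tnnc2 was not (adjusted p = 0.54 with the total and 0.59 with the slow fibre sum). With the counts of old libraries thinned to the lowest total, 51 of the 66 genes at 12 to 16 h were called without 62 h and 58 with it. At 8 to 12 h thinning left 23 and 24 of 37. With the trend over exon length, described below, removed, 54 of the 66 were called without 62 h and 47 with it.

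**Figure D3:**
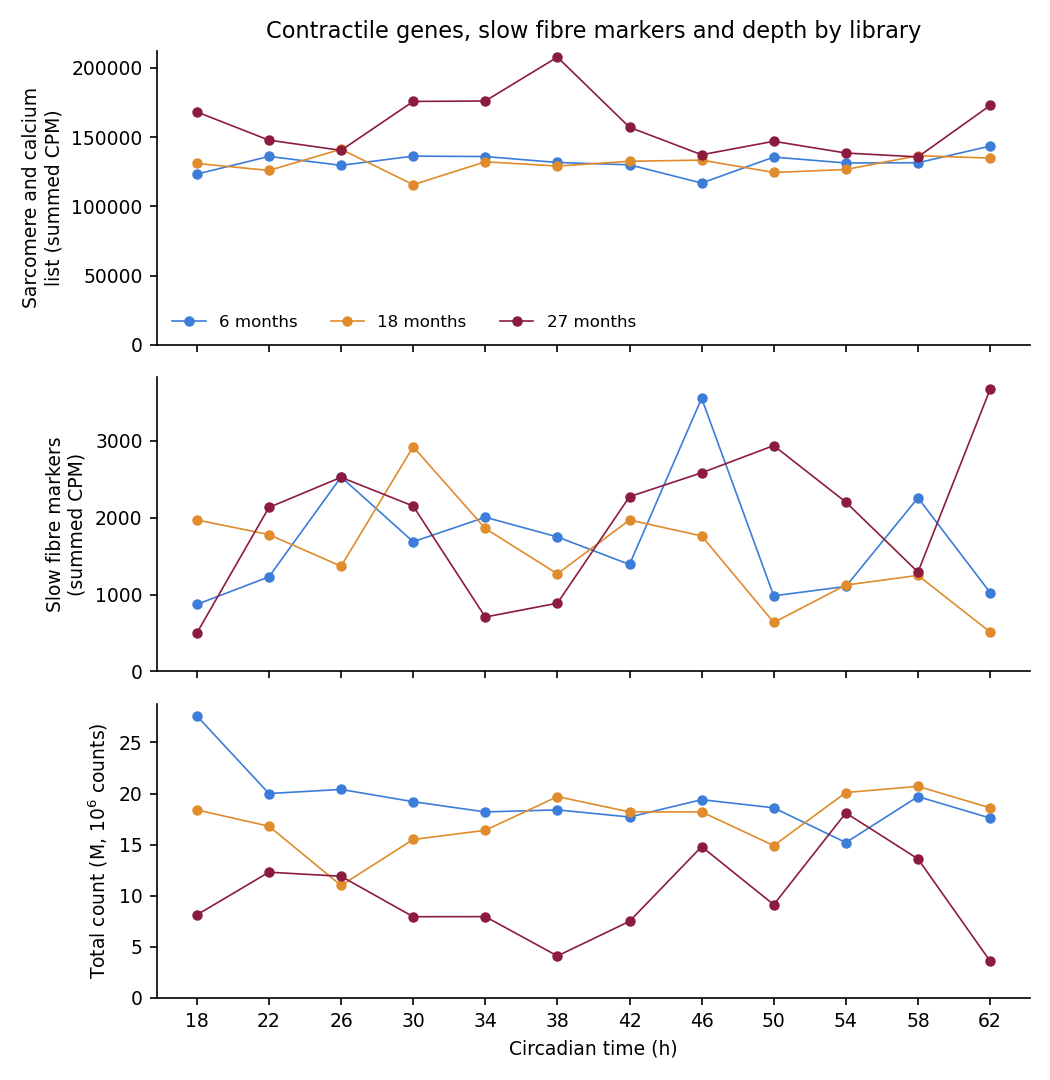
Summed CPM of the 25 sarcomere and calcium genes (top), summed CPM of 8 slow fibre markers (middle) and total count in Ms (bottom) against circadian time in hours, with 1 point per library and 1 colour per age. In 27-month muscle the contractile sum is highest at 38 h (207631 CPM), where slow fibre markers (888 CPM) and depth (4.1 M) are low.

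Genes that respond to glucocorticoids, the adrenal hormones that rise daily, were partly rhythmic. Of 18 listed genes, 6 were called with 62 h, 5 without and 5 in both, and 4 without 38 and 62 h, against 4.62%, 1.97%, 1.58% and 1.03% of all genes tested. Fkbp5, a chaperone of the glucocorticoid receptor, ranged from 36.3 to 105 CPM (median 59.5 CPM), was highest at 18 and 46 h and peaked at 18.7 ± 0.63 h (amplitude 0.61 ± 0.09, adjusted p = 0.0011). The young peak of Fkbp5 was at 18.5 h and the aged one at 17.5 h, with amplitudes of 0.68 and 0.67. Tsc22d3, the leucine zipper known as GILZ, peaked at 14.8 ± 0.46 h (adjusted p = 0.0029), and the kinase Sgk1 at 14.1 ± 0.47 h (adjusted p = 0.0052). Zbtb16, a transcription factor, peaked at 20.4 h with adjusted p = 0.0498 and did not pass without 38 and 62 h. Klf15 did not pass at any age (adjusted p = 0.83 in old muscle without 62 h), with 46.4 to 87.4 CPM over the old libraries.

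Of 24 genes of ubiquitin ligation and protein breakdown, 5 were called with 62 h (4.62% of all genes tested were) and 3 in both (1.58% of all): Usp2, Trim63 and Ubb. Trim63, the ligase MuRF1 that tags muscle proteins, ranged from 307 to 670 CPM (median 442 CPM), was highest at 18, 22 and 46 h and peaked at 17.9 ± 1.1 h (amplitude 0.39 ± 0.10, adjusted p = 0.036). It did not pass without 38 and 62 h (adjusted p = 0.052). Fbxo32, the other main ligase of muscle atrophy, did not pass (adjusted p = 0.48), with 322 to 918 CPM. Of 17 amino acid genes 2 were rhythmic: the transporter Slc38a2 peaked at 17.9 ± 0.68 h (adjusted p = 0.0004) and Gpt2, an alanine aminotransferase of mitochondria, at 14.3 ± 0.79 h (adjusted p = 0.0092).

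Of 19 myogenic and growth genes 2 were rhythmic, against 1.58% of all genes tested: Myod1 and Fst, the myostatin inhibitor follistatin. Fst ranged from 1.71 to 10.4 CPM, was highest at 26, 30 and 50 h and peaked at 2.88 ± 0.79 h (adjusted p = 0.00094). Fst was called in young and aged muscle as well, with peaks at 0.51 and 1.32 h. Of 14 tested genes that respond to denervation 2 were rhythmic, against 1.58% of all genes tested. Among them was Ncam1, a cell adhesion molecule, with a peak at 2.7 ± 0.8 h. It was 19.3 CPM at 50 h and 5.01 to 9.95 CPM elsewhere, and it was not called in young or aged muscle. Chrna1 and Chrnd, subunits of the acetylcholine receptor that did not pass, were also highest at 50 h (88.6 and 13.4 CPM). Summed Schwann cell markers, 5 genes of the cells that wrap nerve fibres, were 180 CPM at 46 h and 177 CPM at 50 h against 51.9 to 98.5 CPM in the other old libraries. Their part in the rhythm of Ncam1 was not tested. Of 16 genes of the unfolded protein response 1 was rhythmic, Herpud1, which peaked at 14.3 ± 0.76 h (amplitude 0.36, adjusted p = 0.0029) and passed also without 38 and 62 h (adjusted p = 0.016).

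None of 27 genes of lipid uptake and oxidation and none of 20 of oxidative phosphorylation was called without 62 h (1.97% of all genes tested were), and 1 of each, Ppargc1b and Ndufa4, was called with it (4.62% of all). Pdk4, the kinase that spares glucose in fasting, ranged from 141 to 1090 CPM over the old libraries, but its highest value, at 46 h, had no match at 22 h (373 CPM). Its amplitude was 0.09 ± 0.44 (adjusted p = 0.85). Ucp3, a mitochondrial carrier, was highest at the same 46 h (232 CPM) and did not pass (adjusted p = 0.81). None of 19 tested matrix genes was called without 62 h, although Col3a1 and Fbn1 were with it. No marker of adipocytes, macrophages, lymphocytes, erythroid cells, Schwann cells or tendon was called, with or without 62 h, and of the endothelial markers Kdr was, with 62 h alone.

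The library at 62 h differed from the other old libraries in a way that followed gene length. In it, 23.4% of genes lay more than 1 log2 unit from the curve of the other 11, against 2.96% to 7.69% when each of the others was left out in the same way. Of all genes 12.4% were that far above and 11% that far below. The libraries at 38 and 62 h, at the same time of day, differed by a median of 0.60 log2 units per gene, while the other 5 such pairs of old libraries differed by 0.22 to 0.34. Genes of the longest quintile by summed exon length (7326 bases or more) were lower than those of the shortest quintile (2080 bases or less) by 1.27 log2 units in the median. In the other 35 muscle libraries the same difference lay between -0.57 and 0.71.

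**Figure D4:**
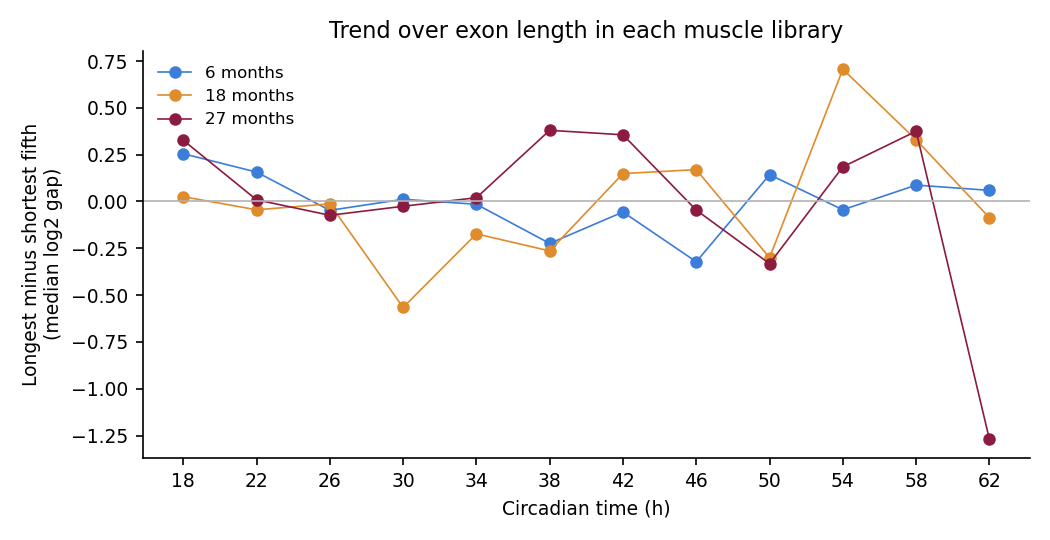
Median gap to the fitted curve of the longest quintile of genes by exon length minus that of the shortest quintile, in log2 units (vertical axis), for each of the 36 muscle libraries by circadian time in hours (horizontal axis) and age (colour). The 27-month library at 62 h stands at -1.27, below all other muscle libraries.

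Genes called only with 62 h differed in length by window. The 283 of them at 12 to 16 h that have a length had a median of 1583 bases, and the 78 at 0 to 4 h one of 7838 bases, against 4170 bases over all genes tested. Of the 442, 64 had an unadjusted p above 0.05 without 62 h. Rps27, a ribosomal protein gene, was 299 CPM at 62 h and 79.4 to 143 CPM elsewhere, and its adjusted p went from 0.024 to 0.32. Sec61g, a subunit of the protein translocation channel, was 96.5 CPM at 62 h and 27.9 to 37.9 CPM elsewhere (adjusted p 0.028 with and 0.37 without). Phlda3 was 664 CPM against 214 to 374 CPM, and Gm7331, a gene name of the kind given to predicted copies, 33.1 CPM against 1.49 to 12.2 CPM. Counts of Rps27 and Gm7331 are uncertain where copies share their sequence.

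Genes were ranked by their gap at 62 h divided by the residual SD around the curve of the other 11 libraries, a ranking that favours genes steady elsewhere. In log2 units other genes lay farther off, such as Hspa1b at 2.39 and Gm7331 at 2.23. At the top of the ranking above the curve, Ndufb3, a subunit of respiratory complex I, was 259 CPM at 62 h and 93.4 to 120 CPM elsewhere, and the mitochondrial chaperonin Hspe1 148 CPM against 52.7 to 69.5 CPM. Prdx2, a peroxidase, and Trnau1ap lay 1.27 and 1.66 log2 units above. Below it, Peak1 was 4.17 CPM against 17.6 to 29.6 CPM and Serac1 3.34 CPM against 18.1 to 25.1 CPM. Gpatch2 and Mon2 had gaps of -1.51 and -1.27 log2 units. None of these 8 was called with or without 62 h.

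Leaving out 62 h also brought genes in. Gm13889 was 10 CPM at 62 h where the curve of the other 11 lay 2.25 log2 units lower, and its adjusted p was 0.15 with 62 h and 0.002 without, with a peak at 0.53 ± 0.67 h. Pqlc1 was called without 62 h (adjusted p = 0.0024) at 0.08 ± 0.46 h, and Hspa1b at 0.39 ± 0.96 h (adjusted p = 0.0041). All 3 passed without 38 and 62 h too. Klhl12, an adaptor of a ubiquitin ligase, was called without 62 h with a peak at 14.1 ± 0.54 h and a small amplitude of 0.26. It did not pass without 38 and 62 h (adjusted p = 0.1).

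The rhythms of old and young muscle were compared gene by gene, by testing whether the cosine and sine terms of the 2 ages were equal. No gene passed with edgeR, with or without 62 h. Before adjustment, 1298 of 14542 genes were under 0.05 with 62 h and 708 of 14610 without it. If no gene differed, a share of about 0.05 would fall there, which the count without 62 h did not exceed. DESeq2's likelihood ratio test called 15 genes with 62 h and 1 without it. Per2 had the smallest p (1.5e-05, adjusted p = 0.22). Per2 ranged from 9.09 to 31.4 CPM in old muscle, from 3.88 to 36.7 CPM in young and from 5.22 to 38.6 CPM in aged muscle. Its amplitude was 0.74 ± 0.12 in old muscle against 1.50 ± 0.13 in young and 1.30 ± 0.11 in aged muscle, and its peak 11.2 ± 0.6 h against 12.9 ± 0.33 and 12.1 ± 0.33 h. The difference from aged muscle passed with 62 h (adjusted p = 0.028) and not without it (adjusted p = 0.12). Nrip1, a corepressor of nuclear receptors and next in the list, had an amplitude of 0.43 ± 0.12 in old against 0.94 ± 0.08 in young muscle (adjusted p = 0.40). Cep85l followed (adjusted p = 0.46), with 32.5 to 85 CPM in old and 32.3 to 159 CPM in young muscle.

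Peak times of the clock genes in old muscle lay close to those of the other ages. Of the 15 rhythmic clock genes, 14 peaked within 2 h of the young peak and all 15 within 2 h of the aged peak. The median shift was -1.07 h against young muscle, with 3 of the 15 later in old muscle, and 0.16 h against aged muscle, with 8 later. Arntl peaked at 22.1 h in old, 23.8 ± 0.4 h in young and 22.3 ± 0.34 h in aged muscle, and Dbp at 9.06, 10.5 ± 0.27 and 8.65 ± 0.34 h. For both genes the old against young difference had an unadjusted p under 0.01, with and without 62 h. The adjusted p was 0.50 with 62 h and 0.88 without it. All these genes come from the same 12 libraries per age, so their shifts are not independent of each other. The median amplitude of the 15 genes was 0.74 in old, 1.08 in young and 0.96 in aged muscle. Single genes went both ways. Amplitudes were larger in old than in young muscle for Npas2, Cry2, Bhlhe40, Bhlhe41, Dbp, Hlf and Nfil3. They were smaller for Arntl, Per1, Per2, Per3, Ciart, Nr1d1, Nr1d2 and Tef. Against aged muscle they were smaller for Arntl, Per1, Per2, Per3, Cry2 and Tef and larger for the others.

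**Figure D5:**
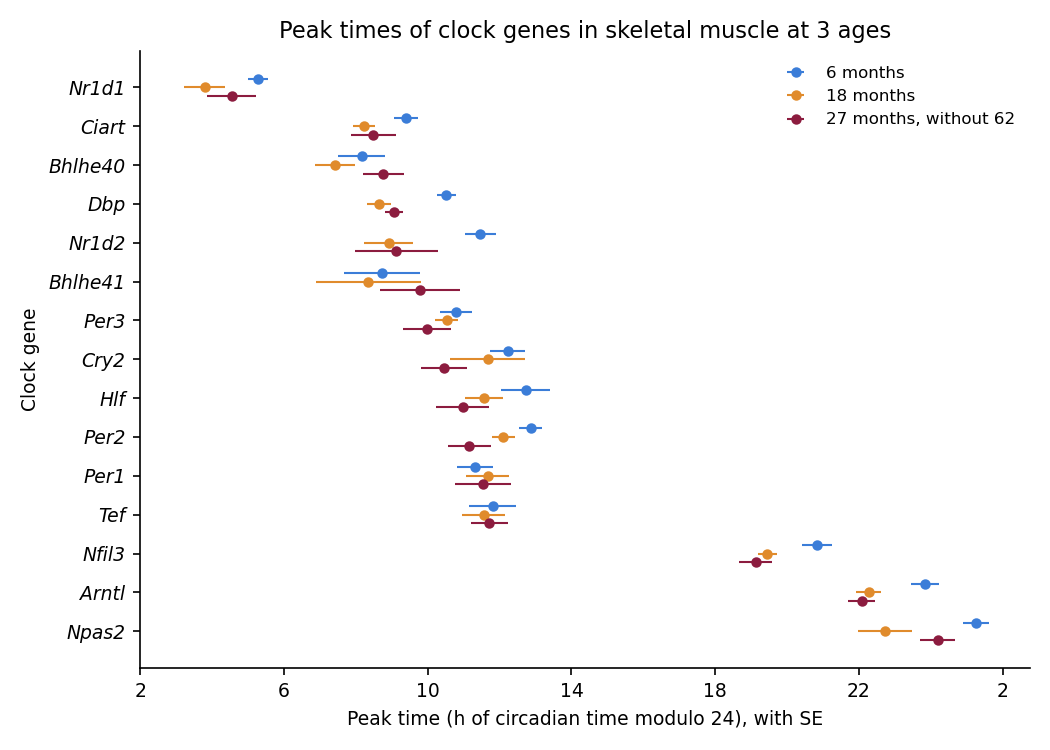
Peak time in hours of circadian time modulo 24 (horizontal axis, points with SE) of the 15 rhythmic clock genes (vertical axis) in muscle of 3 ages; 27-month values leave out the library at 62 h. Arntl lies at 22.1 h in 27-month and 23.8 h in 6-month muscle, and Per1 at 11.5 and 11.3 h.

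Old and aged muscle differed in the rhythm of 1102 genes (7.58%) with 62 h and of 17 (0.116%) without it, and of 8 (0.0545%) without 38 and 62 h. The 17 included the fast contractile genes Tnnc2, Tnni2, Pvalb and Tpm1 with Mylf-ps, a copy whose name marks it as a myosin light chain pseudogene. With the trend over exon length removed, no difference passed without 62 h, so each call on the 17 is lost. For Pvalb, parvalbumin, the amplitude was 0.49 ± 0.13 at 13.9 h in old muscle and 0.27 ± 0.11 at 2.09 h in aged muscle (adjusted p = 0.036 without 62 h), while in young muscle it was 0.01 ± 0.06. Hoxc8, a homeobox gene at 0.556 to 3.6 CPM, and Pla2g7, which degrades platelet-activating factor, also passed without 62 h (adjusted p = 0.043 for both). For others the larger amplitude was that of aged muscle: Bcl7a, a subunit of a chromatin remodeller, had an amplitude of 0.48 ± 0.06 in aged and 0.14 ± 0.09 in old muscle. AI480526 and the histone methyltransferase gene Dot1l peaked at 16.5 and 15.9 h in aged and at 0.13 and 0.83 h in old muscle. Their rhythm in old muscle passed with 62 h (adjusted p = 0.040 and 0.0195) and not without it (adjusted p = 0.13 and 0.078). That of Bcl7a did not pass in old muscle (adjusted p = 0.22 with 62 h and 0.43 without). Both comparisons share the old libraries, so the 2 results are not independent.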

How the data were processed

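RNA was sequenced from 216 libraries of 6 mouse tissues. This account uses the 36 of skeletal muscle, 12 per age. RNA was extracted with Trizol and sequenced from poly(A) libraries, per the labels' protocols, each library from 2 pooled samples. The submitters' processing notes name HISAT2, HTSeq, GRCm38 and mm10, with no versions or roles; the use of strand is not given in the sources used here, so counts of overlapping, antisense or copied genes are uncertain. The authors deposited whole-number counts for 55376 gene names and, in a separate table not used here, the same values scaled by library total.

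Counts were filtered with filterByExpr (minimum count 10, by age), scaled by TMM and fitted with edgeR 4.0.16 (R 4.3.3) to all 36 libraries at once: per age a mean and a cosine and sine of period 24 h, with robust quasi-likelihood F tests of both terms, two-sided, and Benjamini-Hochberg adjustment at 0.05. The fits share 1 estimate of the spread over the ages. Peak times and amplitudes are least-squares fits to log2 CPM (prior count 2, TMM library sizes). CPM levels in the text are the counts divided by the library total. No pair among the 66 pairs of old libraries agreed within sampling noise (chi-square per degree of freedom at least 7.56). On simulated counts shaped on these libraries, the test with 12 old libraries recovered 83% of 100 genes given an amplitude of 0.5 and 97% of 100 given 1, with a median error of peak time of 0.38 and 0.23 h, and called 9 unchanged genes, over 14400 genes in all. These rates hold for the simulated counts. Old libraries 24 h apart differed by a median of 0.22 to 0.60 log2 units per gene, and young ones by 0.12 to 0.22. The effect on the rates of this spread of the old libraries was not tested. Nor was that of depth, fibre or length trends shared between genes, or of a library that stands apart, such as that at 62 h. Exon lengths came from GENCODE M21 (99.2% of genes tested had one).

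Genes were named by rule: all clock list members; per window of 4 h the 4 rhythmic genes of largest amplitude with a mean of at least 5 CPM; the 4 with the smallest p among genes lost and among genes gained without 62 h; the 4 farthest above and below the curve at 62 h; up to 4 with the smallest p for each difference between ages; and members of functional lists. Some members that the rule names are not reported here. The library at 62 h, the members and the gene lists were chosen with earlier results of these data known. Alternatives tried were DESeq2 1.42.0, other scaling and filters, a term for the second cycle, a stricter threshold, old libraries by themselves, leaving out each library and circadian time as a block. Those without 38 and 62 h, with thinned counts, with depth or slow fibre markers as covariates and with the length trend removed were chosen after seeing the data.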

Additional observations from a re-analysis of the deposited data

Results flagged for a closer look

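Old and aged muscle differed in rhythm, by the test of equal cosine and sine terms, in 1102 genes with all libraries and in 17 without the old library at 62 h. Every gene named in this paragraph was picked out because that difference passed with all 12 old libraries. Its adjusted p (edgeR's quasi-likelihood test) was 0.00627 for each of Mylf-ps, Pvalb, Tnnc2, Tnni2, AI480526, Bcl7a and Dot1l, and without 62 h 0.0361 for each of these 7. It was 0.0116 for Sec61g, 0.0156 for Ncam1, 0.0184 for Hoxc8 and 0.0246 for Pla2g7, and these 4 also passed without 62 h, at 0.0406 to 0.0433. The other genes passed with 62 h and not without it. Rps27 went from 0.0182 to 0.0843, Gm6560 from 0.0194 to 0.0942 and Gm7331 from 0.027 to 0.195. Per2 went from 0.0276 to 0.121 and Hspe1 from 0.0313 to 0.198. Phlda3 went from 0.0414 to 0.257, Cep85l from 0.0418 to 0.163 and Ndufb3 from 0.0433 to 0.273. Gm6560 was 64.9 CPM at 38 h, 58.8 CPM at 34 h and 55.6 CPM at 62 h, and between 22.2 and 42.4 CPM in the other old libraries.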

How the results depend on the processing

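Amplitudes of 71 of 71 named genes without 62 h moved by less than the residual SD around the gene's curve from all 12 libraries. Leaving out 1 of 12 evenly spaced libraries cannot move an amplitude by that much, so this count does not measure stability. The amplitude of Serac1 went from 0.33 to 0.13 and that of Hspe1 from 0.31 to 0.08, while that of Dbp went from 1.62 to 1.60. With a prior count of 0.5, 70 of 71 moved by less than that SD, and Npas2 went to 2.76. Without 62 h the peak times of 62 of the 71 moved by less than their standard error, and 9 moved by more. Among these, Bhlhe40 went from 8.04 to 8.77 h. Larger moves were those of Gpatch2, from 2.35 to 12.1 h, and Serac1, from 2.84 to 11.7 h, neither of them called. Counts of genes moved more. In the order all 12 old libraries, then without 62 h, rhythmic genes numbered 2030 and 1338 with no filter on low counts, 1273 and 563 with DESeq2, 29 and 97 with old libraries by themselves, and 127 and 86 at an adjusted p under 0.01. With the library total as a covariate they numbered 123 and 195, and with slow fibre markers 2002 and 77. Without 38 and 62 h they were 152. Leaving out 1 library gave 288 (without 62 h) to 1084 (without 58 h), and after 62 h was left out 152 (without 38 h) to 379 (without 58 h). The first count was 357 without 26 h, 1034 without 42 h and 412 without 54 h. The second was 191 without 34 h and 175 without 50 h. For old against young muscle the count was 605 with no filter (419 without 62 h), 15 with DESeq2 (1 without 62 h) and 0 without each library in turn. For old against aged muscle it was 2314 with no filter (1294 without 62 h), 1842 with DESeq2 (341 without 62 h), 276 with the length trend removed (0 without 62 h), 8 without 38 and 62 h, and 17 (without 62 h) to 1376 (without 38 h) when 1 library was left out. The causes were not tested. The labels give no replicate numbers; with circadian time as a replicate block shared by the 3 ages the differences numbered 0 against young and 807 against aged muscle (26 without 62 h). No such block can be combined with the rhythm test itself, since it absorbs time. Depth limits the genes at low level: the shallowest old library held 3.6 M counts, where 1 CPM is fewer than 4 counts.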

Other observations

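Beside the 1.58% of all genes tested that were rhythmic, 1 of 18 immediate early genes was, Jun, a subunit of AP-1, with a peak at 21.8 ± 1.2 h and an amplitude of 0.25. Atf3, a stress-induced repressor, was called without 62 h alone (adjusted p = 0.017), with 23.7 CPM at 26 h and 2.93 CPM at 38 h. Of 19 heat shock and cold-inducible genes only Hspa1a and Hspa1b were called, and Cirbp, the cold-inducible RNA-binding protein, was not (adjusted p = 0.44, 37.3 to 52.3 CPM). Of 14 glycogen genes, Phkg1, the catalytic subunit of phosphorylase kinase, was rhythmic at 13.9 h besides Ppp1r3c, and was lost without 38 and 62 h (adjusted p = 0.16). Of 20 tested genes of lipid synthesis, Gpam, which starts triglyceride synthesis, was called without 62 h alone, at 8.98 h. Of 8 tested cell cycle genes, Wee1, a kinase that delays mitosis and a known clock output, was called with 62 h (adjusted p = 0.0498) and not without it (adjusted p = 0.068), with a peak at 11.5 ± 1.2 h.

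The old library at 46 h differed most from its label by its 19 clock genes, which read 1 h, 3 h later than its time of day of 22 h by the curves of the other old libraries and 4.25 h later by those of young muscle. It also held the highest values of Pdk4 (1093 CPM, against 141 to 658 CPM in the other old libraries), Ucp3 and Klf15.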
